A study of Mus musculus with 10 samples.

Results

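Expression of 8 genes of the surface ectoderm and periderm was examined in the frontonasal prominence (FNP), the embryonic facial tissue that gives rise to the forehead, the bridge of the nose and the snout. The 8 genes were chosen by name from 35542 genes in the count table, and they are Trp63, Grhl2, Grhl3, Cdh1, Epcam, Esrp1, Krt8 and Krt18. RNA-seq libraries came from E10.5 mouse embryos of the FVB/NJ strain. The WT group held 6 libraries with the genotype Smchd1 WT/WT, of which 3 were labelled male and 3 female. The MD1 group held 4 libraries from embryos homozygous for MommeD1, a loss-of-function allele of the chromatin regulator Smchd1, and 2 of these were labelled male and 2 female. No other treatment or allele is named for either group. According to the study, homozygosity for this allele is lethal to female embryos. The labels do not tell which embryos, or how many, went into each library, so every p-value below is set against the spread between libraries, which may in part be technical. The question put to the data was whether the epithelial covering of the FNP differed in expression between the genotypes.

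The FNP of this stage is a bulk of neural crest mesenchyme wrapped in a thin surface ectoderm, which thickens into the nasal placodes and is later covered by periderm, a flat outer layer that keeps facing epithelia from sticking together. Trp63 encodes p63, the transcription factor that commits ectoderm to a stratified epithelium. Grhl2 and Grhl3 encode Grainyhead-like factors that activate genes of cell junctions and of the epithelial barrier, and Grhl3 also acts in the periderm, where its mutation causes clefting in humans. Cdh1 encodes E-cadherin of the adherens junction, and Epcam encodes a homophilic adhesion protein of epithelial cells. Esrp1 encodes a splicing regulator that selects the epithelial exons of receptors such as Fgfr2. Krt8 and Krt18 encode a type II and a type I keratin that pair in the filaments of simple epithelia and periderm.

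The 8 genes lie on 5 autosomes (GRCm38, coordinates from the count table, all matching GENCODE M21). Trp63 (ENSMUSG00000022510) spans chr16:25683763-25892102 on the plus strand, Grhl2 (ENSMUSG00000022286) chr15:37233036-37363569 on the plus strand and Grhl3 (ENSMUSG00000037188) chr4:135541888-135573630 on the minus strand. Cdh1 (ENSMUSG00000000303) spans chr8:106603351-106670246 on the plus strand and Epcam (ENSMUSG00000045394) chr17:87635979-87651129 on the plus strand. Epcam starts 16.2 Mb past the end of Smchd1 on the same chromosome. Esrp1 (ENSMUSG00000040728) spans chr4:11331933-11386783 on the minus strand. Krt8 (ENSMUSG00000049382, chr15:101996698-102004482, minus strand) and Krt18 (ENSMUSG00000023043, chr15:102028180-102032027, plus strand) are neighbours that point away from each other across 23698 bases. Non-coding gene models on the opposite strand overlap exons of 3 of the genes, over 1.96% of the exon bases of Grhl2 (Gm16136), 2.01% of Esrp1 (Gm26663) and 5.16% of Krt8 (Gm36026), and the kit that the labels name for these libraries does not mark strand, so reads in those bases cannot be assigned to either gene. Those 3 models held 597, 182 and 326 reads over all libraries.

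Sequence upstream of the start was in the RefSeq promoter table (GRCm38.p6) for 4 of the 8 genes, Grhl3, Krt8, Krt18 and Epcam, and not for Trp63, Grhl2, Cdh1 and Esrp1. The stretches are shown because these genes, Krt8 and Krt18 above all, varied together across the libraries (below). Each covers up to 250 bases before the RefSeq start, shortened where the GENCODE model begins earlier, and is printed 5′ to 3′ on the strand of the gene. Capitals mark letters found on either strand from the motifs CACCTG (the E-box bound by the ZEB and SNAI repressors), ACCGGT (the centre of the Grainyhead-like motif AACCGGTT), GCCNNNGGC (TFAP2) and GGGCGG (the GC box). The stretches are chr4:135573633-135573882 (minus) for Grhl3, chr15:102004483-102004592 (minus) for Krt8, chr15:102027966-102028179 (plus) for Krt18 and chr17:87635729-87635978 (plus) for Epcam.
Grhl3: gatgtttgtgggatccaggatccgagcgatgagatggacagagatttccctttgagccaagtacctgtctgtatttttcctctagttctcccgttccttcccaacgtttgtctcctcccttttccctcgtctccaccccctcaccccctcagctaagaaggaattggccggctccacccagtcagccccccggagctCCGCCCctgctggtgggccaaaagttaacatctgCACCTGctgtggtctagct
Krt8: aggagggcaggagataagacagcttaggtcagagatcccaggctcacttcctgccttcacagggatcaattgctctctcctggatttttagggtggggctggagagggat
Krt18: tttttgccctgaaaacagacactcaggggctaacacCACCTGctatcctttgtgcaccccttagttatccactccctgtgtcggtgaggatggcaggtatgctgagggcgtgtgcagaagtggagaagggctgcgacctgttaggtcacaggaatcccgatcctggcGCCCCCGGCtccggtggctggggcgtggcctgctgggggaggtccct
Epcam: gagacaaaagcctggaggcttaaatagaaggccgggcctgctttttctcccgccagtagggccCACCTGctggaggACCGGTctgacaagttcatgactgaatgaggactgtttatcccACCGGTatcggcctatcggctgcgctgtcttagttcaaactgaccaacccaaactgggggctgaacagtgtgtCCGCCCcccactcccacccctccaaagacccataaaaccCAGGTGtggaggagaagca

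In the full windows of 250 bases CACCTG occurred in 4 of 4 genes, against 17.2% of the 32851 windows in the table. In Krt8 it lies past the start of the GENCODE model and so outside the printed stretch. Epcam held 2 copies of CACCTG, of which the one nearer the start reads CAGGTG on this strand. It also held 2 copies of ACCGGT, a motif present in 1.86% of all windows and searched for only after the sequence had been read. The longer AACCGGTT was in 0 of the 4 windows and in 0.116% of all windows. GCCNNNGGC was in Krt18 alone of the 4 (13.7% of all windows), and GGGCGG was in Grhl3 and Epcam (32.7%). The AP-1 motif TGANTCA (6.75% of all windows) and TATAAA (12.4%) were in none of the 4. None of these motifs overlaps another in the printed stretches. A match describes the letters in the window, not binding.

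Total counts ranged from 4195119 in MD1 male replicate 3 to 24125084 in WT male replicate 3. Smchd1 transcripts stood at 246 ± 14 counts per 1000000 (CPM, TMM-scaled; SD, n = 6) in WT and 78.6 ± 20.8 CPM (SD, n = 4) in MD1, a log2 fold change of -1.65 (SE 0.15, edgeR adjusted p = 0.000746). The library labelled MD1 female replicate 1 held Y-linked reads, with Ddx3y at 88.2 CPM, against 78.2 to 91.4 in WT males and 0 in WT females. Its Xist level of 204 CPM lay between the WT males (0.596 to 2.08 CPM) and the WT females (2594 to 2695 CPM). Its Ddx3y level thus matched the WT males, while its Xist level matched neither sex. Xist in MD1 female replicate 4 was at 6724 CPM, above every WT female, with Ddx3y at 0. No other MD1 library lacked Ddx3y reads. MD1 female replicate 4 stood apart on the first principal component (37.3% of the variance) and MD1 male replicate 3, the shallowest library, on the next (23.8%). Results are therefore also given without MD1 female replicate 4 and without both libraries labelled MD1 female.

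All 8 genes passed the filter on low counts, with between 27 reads (Grhl3, MD1 male replicate 3) and 1598 reads (Epcam, MD1 female replicate 1) per gene and library. In WT libraries the adhesion genes and simple keratins stood highest and the transcription factors lowest when levels were compared per length. Mean log2 RPKM (deposited values, n = 6, SD) was 4.69 ± 0.15 for Epcam, 4.12 ± 0.13 for Krt18, 3.54 ± 0.12 for Cdh1 and 3.33 ± 0.18 for Krt8. It was 2.25 ± 0.23 for Esrp1, 1.5 ± 0.28 for Trp63, 1.25 ± 0.20 for Grhl2 and 1.10 ± 0.43 for Grhl3. Among the autosomal genes tested, these levels reached from the 88.2 percentile for Epcam to the 30.7 percentile for Grhl3. Since the tissue was profiled in bulk, these levels mix the share of epithelial cells with the RNA per cell, and fewer cells of a type cannot be told apart from less RNA in each.

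In each of the 6 WT libraries, Epcam was above Krt18 (mean difference 0.57 log2 RPKM), Krt18 above Cdh1 (0.58), Krt8 above Esrp1 (1.08) and Esrp1 above Trp63 (0.75). For these 4 neighbouring pairs the exact sign-flip permutation test, 2-sided, gave p = 0.0312, the smallest that 6 libraries allow, and an adjusted p of 0.0547 over the 7 pairs. None of the 7 pairs therefore passed the 0.05 threshold with these libraries. Cdh1 against Krt8 (0.21, higher in 5 of 6, adjusted p = 0.109 in the exact permutation test) and Trp63 against Grhl2 (0.25, 5 of 6, 0.109) were closer to the spread. Grhl2 and Grhl3 differed least (0.14, 4 of 6, adjusted p = 0.406 in the same exact test). With the 4 MD1 libraries added, 5 of the 7 pairs passed, namely the first 4 named here and Trp63 over Grhl2 (adjusted p = 0.0246, exact permutation test, n = 10).

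**Figure D1:**
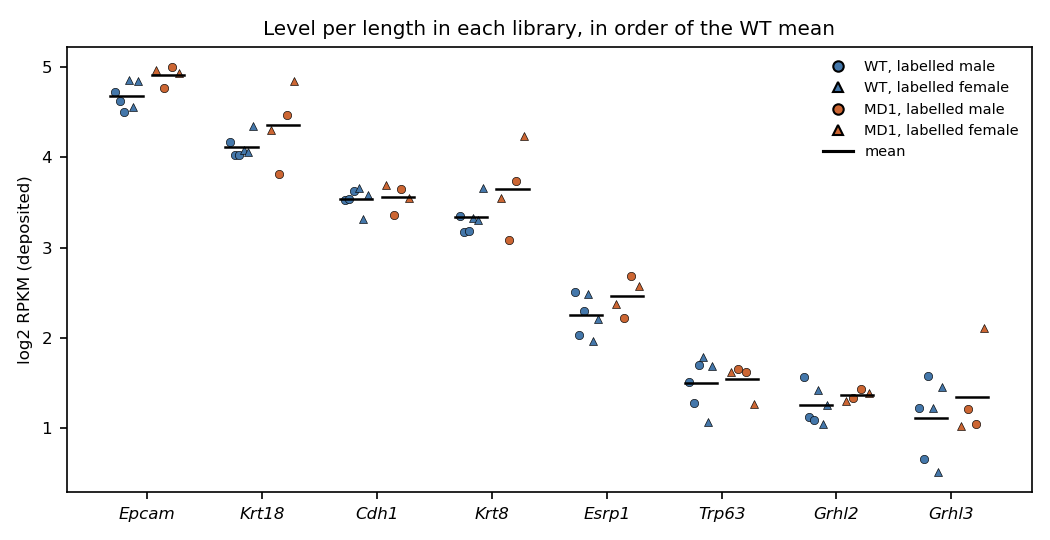
Deposited log2 RPKM of each gene (y axis) in every library, with genes on the x axis in order of the WT mean, blue points for WT and orange for MD1, circles for libraries labelled male, triangles for female, and black lines for the means. WT means run from 4.69 for Epcam to 1.10 for Grhl3, and the points of neighbouring genes overlap most between Trp63, Grhl2 and Grhl3.

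The genes also differed in how far WT libraries spread. The coefficient of variation of CPM over the 6 WT libraries was smallest for Cdh1 (7.55%), followed by Krt18 (9.33%), Epcam (10.7%), Krt8 (13.1%), Grhl2 (15.4%), Esrp1 (16.0%), Trp63 (18.2%) and Grhl3 (27.3%). Cdh1 was thus at the 29.9 percentile of variation among the genes tested and Grhl3, which has the fewest reads, at the 84.7 percentile.

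Between genotypes the 8 genes had log2 fold changes (MD1 against WT) from 0.09 to 0.49, all above 0, and none passed the threshold. Here 0 of 8 had an adjusted p of at most 0.05 in edgeR's quasi-likelihood test, against 12 of the 15452 autosomal genes tested (0.0777%, with 0.0712% higher and 0.00647% lower in MD1). At an unadjusted p under 0.05 there were 2 of 8, Epcam and Krt8, both higher in MD1, against 9.79% of all genes tested in either direction and 6.41% higher in MD1, and 0 of 8 passed in DESeq2 (0.332% of all genes). A log2 fold change above 0 was found for 50.5% of all genes tested. The median was 0.30 over the 8 genes and 0.00 over all genes tested. In 0 of 8 were the 4 MD1 libraries all above or all below the 6 WT libraries, which happened for 0.99% and 1.06% of all genes tested.

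Trp63 was the gene with the smallest difference. Its level in WT ran from 19.7 CPM over a median of 28.3 to 32.1 CPM, and in MD1 replicates 1 to 4 it was 28.4, 29.5, 29.2 and 27.1 CPM. The MD1 libraries fell inside the WT range and spread less than the WT libraries. This gave a log2 fold change of 0.09 (SE 0.14, 95% interval -0.20 to 0.39, adjusted p = 0.807).

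Grhl2 ranged in WT from 19.96 CPM over a median of 21.6 to 28.6 CPM, and was 23.3, 24.2, 26.3 and 30.2 CPM in MD1 replicates 1 to 4. Only MD1 female replicate 4 exceeded the highest WT library. On the log2 scale the difference between genotypes was 0.19 (SE 0.13, 95% interval -0.10 to 0.47, adjusted p = 0.601), and 0.10 without MD1 female replicate 4.

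Grhl3 ranged in WT from 4.45 CPM over a median of 7.26 to 9.08 CPM, and was 6.23, 7.18, 6.52 and 16.2 CPM in MD1 replicates 1 to 4. MD1 female replicate 4 was far above every other library and the remaining MD1 libraries sat inside the WT range. Its log2 fold change was 0.41 (SE 0.30, 95% interval -0.25 to 1.06, adjusted p = 0.621), and without MD1 female replicate 4 it was -0.05.

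Among the adhesion genes, Cdh1 ranged in WT from 51.2 CPM over a median of 59.9 to 64.3 CPM, and was 65.4, 52.4, 64.8 and 71.9 CPM in MD1 replicates 1 to 4. Although 3 of the 4 MD1 libraries lay above all WT libraries, MD1 male replicate 2 was among the lowest of the 10. MD1 against WT gave a log2 fold change of 0.10 (SE 0.10, 95% interval -0.11 to 0.32, adjusted p = 0.693), and 0.04 without MD1 female replicate 4.

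Epcam ranged in WT from 54.2 CPM over a median of 62.4 to 70.6 CPM, and was 76.0, 66.7, 79.5 and 90.2 CPM in MD1 replicates 1 to 4. Again 3 of 4 MD1 libraries were above every WT library, and MD1 male replicate 2 lay within the WT range. The log2 fold change of 0.31 (SE 0.10, 95% interval 0.09 to 0.54) had the smallest unadjusted p of the 8 genes, 0.0107 in edgeR, which became 0.496 after adjustment. Without MD1 female replicate 4 it was 0.24 (adjusted p = 0.831).

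The splicing regulator Esrp1 ranged in WT from 27.5 CPM over a median of 33.0 to 40.3 CPM, and was 35.9, 32.8, 45.9 and 50.3 CPM in MD1 replicates 1 to 4. MD1 replicates 3 and 4 were above the WT range and replicates 1 and 2 within it. The log2 fold change was 0.29 (SE 0.15, 95% interval -0.03 to 0.62, adjusted p = 0.518), and 0.17 without MD1 female replicate 4. Esrp2, its paralogue, stood at 10.6 CPM in WT and 12 CPM in MD1 (log2 fold change 0.17, adjusted p = 0.726).

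Of the keratins, Krt8 ranged in WT from 19.4 CPM over a median of 21.8 to 27.3 CPM, and was 25.3, 18.5, 29.5 and 49.6 CPM in MD1 replicates 1 to 4. MD1 libraries included both the highest and the lowest of the 10. The log2 fold change of 0.49 (SE 0.22, 95% interval 0.01 to 0.97) was the largest of the 8 genes, with an unadjusted p of 0.0470 and an adjusted p of 0.506 in edgeR. Without MD1 female replicate 4 it was 0.14.

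Krt18, its partner, ranged in WT from 25.6 CPM over a median of 27.0 to 32.4 CPM, and was 31.3, 22.6, 36.01 and 55.7 CPM in MD1 replicates 1 to 4. All 10 libraries took the same order as for Krt8, with MD1 male replicate 2 lowest and MD1 female replicate 4 highest. Its log2 fold change was 0.39 (SE 0.19, 95% interval -0.03 to 0.82, adjusted p = 0.515), and 0.10 without MD1 female replicate 4.

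**Figure D2:**
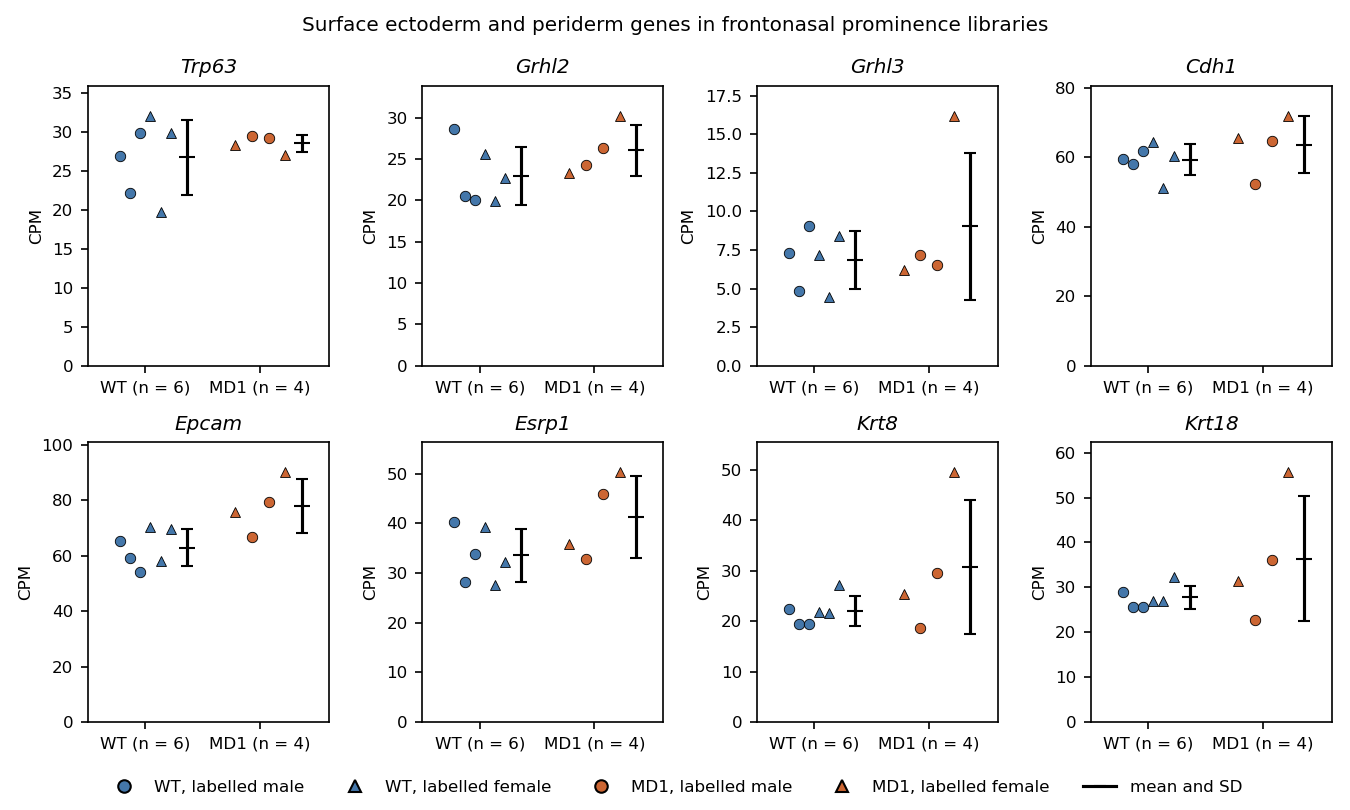
TMM-scaled CPM (y axis, from 0) of each of the 8 genes in the 6 WT libraries (blue) and the 4 MD1 libraries (orange), with circles for libraries labelled male, triangles for female, and black bars for the mean and SD of each genotype. MD1 female replicate 4 is the highest point in every panel but that of Trp63, reaching 49.6 CPM for Krt8 against 27.3 CPM in the highest WT library.

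MD1 female replicate 4 was the highest of all 10 libraries for 7 of the 8 genes, with Trp63 the exception. Averaged over the 8 genes, its log2 level lay 0.66 above the WT mean. MD1 replicates 1 to 3 lay 0.12, -0.03 and 0.26 from it, and the WT libraries between -0.23 and 0.15. Leaving that library out brought the median log2 fold change of the 8 genes from 0.30 to 0.11, with 7 of 8 above 0 (50% of all genes) and 0 of 8 past the threshold (0.0835% of all genes). Leaving out both libraries labelled MD1 female left only MD1 male replicates 2 and 3, at -0.03 and 0.26 from the WT mean, the latter the shallowest library. That setting gave a median of 0.11, 7 of 8 above 0 (48.1% of all genes) and 0 past the threshold (0.0385%). Cdh1 then had a log2 fold change of -0.03. Leaving out only the library labelled MD1 female replicate 1 gave a median of 0.34 with 8 of 8 above 0.

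**Figure D3:**
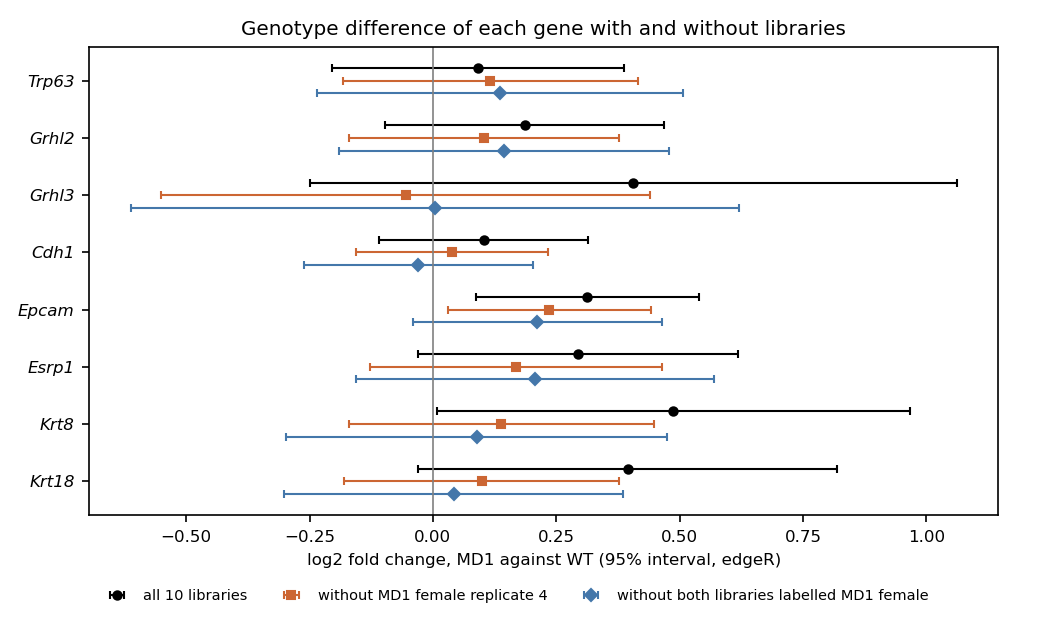
Log2 fold change of each gene, MD1 against WT (x axis), with its 95% interval from edgeR, for all 10 libraries (black), without MD1 female replicate 4 (orange) and without both libraries labelled MD1 female (blue). The points of Krt8, Krt18 and Grhl3 move furthest towards 0 when MD1 female replicate 4 is left out, from 0.49, 0.39 and 0.41 to 0.14, 0.10 and -0.05.

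Other transcripts moved with that library. For the hypoxia response (12 genes tested of 13, among them Ldha, Slc2a1, P4ha1 and Vegfa) the mean log2 CPM against WT was 3.79 in MD1 female replicate 4. It was 1.43 in WT male replicate 1, 1.39 in MD1 replicate 1, the library with Y-linked reads and a female label, and below 0 in the other 7. The summed level of the hypoxia list ran from 1134 to 2611 CPM in WT and from 1467 to 11697 CPM in MD1. In WT male replicate 1 and MD1 replicate 1 the 8 epithelial genes averaged 0.12 and 0.12 above the WT mean. Across the 7 libraries with hypoxia scores below 0, that average ran from -0.23 (WT female replicate 5) to 0.26 (MD1 male replicate 3). Embryonic globins and other erythroid genes (8 tested of 10, among them Hbb-y and Hbb-bh1) had a score, computed likewise, of 1.39 in MD1 female replicate 4 and of at most 0.33 elsewhere, with summed levels of 3097 to 4494 CPM in WT and 2716 to 20708 CPM in MD1. The part of either list in the epithelial differences was not tested.

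Several of the 8 genes, Epcam, Cdh1, Krt8 and Krt18 in particular, are also expressed in epithelia other than surface ectoderm. Markers of yolk sac endoderm and liver (6 tested of 15) had their highest score, 4.33, in MD1 replicate 1. The score was 2.20 in MD1 replicate 4, -1.27 and -1.35 in MD1 replicates 2 and 3, and up to 1.33 among WT libraries. Their summed level was 8.99 to 39.5 CPM in WT and 4.49 to 418 CPM in MD1, with Afp, the fetal serum protein, at a mean of 6.10 CPM in WT and 76.9 CPM in MD1. None of the 15 was at 0 in every library, while Hnf4a, a defining factor of that endoderm, had a mean of 0.295 CPM in MD1 and no reads in 7 of 10 libraries. Mesothelial markers (3 tested of 6) scored 2.11 in MD1 female replicate 4, 0.88 in MD1 male replicate 3, 0.87 in MD1 female replicate 1 and 0.76 in WT female replicate 6. Their summed level was 5.24 to 16.0 CPM in WT and 4.99 to 48.9 CPM in MD1, none of the 6 was at 0 in all libraries, and Krt19, also counted among the keratins below, makes up most of it. The part of either marker list was not tested.

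Markers of the foregut endoderm (6 tested of 11) summed to 91.9 to 163 CPM in WT and 86.3 to 140 CPM in MD1, with Cdx2 at 0 in all 10 libraries. That sum is mostly Nkx2-1 and Shh, which the forebrain also expresses, and Foxa2 had means of 0.260 CPM in WT and 0.0927 CPM in MD1. The trophoblast list (2 tested of 13) summed to 872 to 1030 CPM in WT and 654 to 959 CPM in MD1, nearly all of it Peg10, an imprinted gene of many embryonic tissues, and 3 of its genes were at 0 in all libraries. The score of its 2 tested genes, Peg10 and Tfap2c, was 0.55 in MD1 female replicate 4 and at most 0.13 elsewhere. Genes of the list, named here after their values were seen, went both ways in that library. Peg10 was lowest of all libraries there at 542 CPM, as was Plac1 at 0.608 CPM. Gcm1, Prl3d1 and Tpbpa had no reads there, while 3 other genes of the list were highest there. Hand1 was at 7.07 CPM in that library, 1.24 CPM in MD1 replicate 1 and at most 0.0458 CPM elsewhere, Ascl2 at 5.02 CPM against at most 0.645 CPM, and Tfap2c, which ectoderm also expresses, at 98.9 CPM against at most 31.5 CPM. The part of this list in the epithelial differences was not tested. Of the notochord list 1 of 4 genes was tested, and Noto was at 0 in every library.

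**Figure D4:**
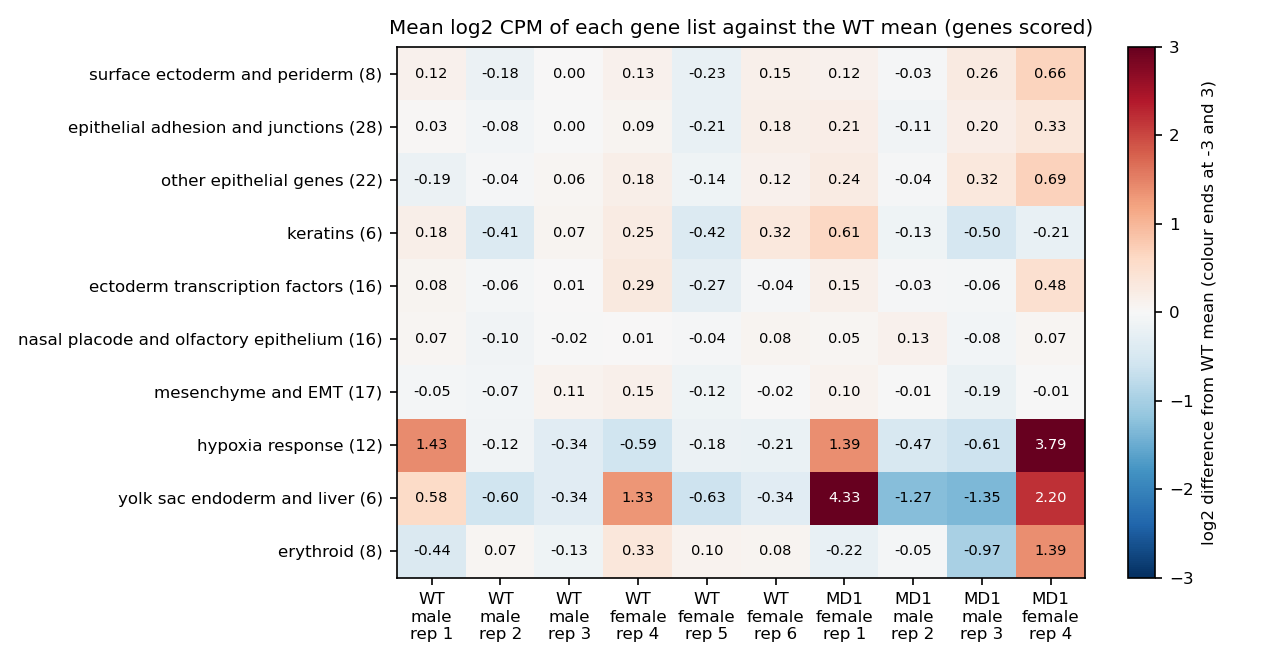
Mean log2 CPM of each gene list (y axis, number of genes scored in parentheses) in each library (x axis), as the difference from the WT mean, with red for higher and blue for lower and colours ending at -3 and 3. The column of MD1 female replicate 4 is red for the 8 surface ectoderm and periderm genes (0.66), other epithelial genes (0.69), hypoxia response (3.79), yolk sac (2.20) and erythroid genes (1.39), and near 0 for mesenchyme (-0.01) and nasal placode (0.07), while the other keratins are below 0 there (-0.21).

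The tissue label was checked against its markers. Facial mesenchyme genes such as Prrx1 (264 CPM in WT and 214 CPM in MD1) and Pdgfra (270 and 245 CPM) were abundant in both genotypes. MD1 female replicate 4 had them at 175 and 127 CPM, below the lowest WT libraries (215 and 219 CPM). The score of the whole mesenchyme list in that library was -0.01. Of the epidermal keratins, Krt5 averaged 2.29 CPM and Krt14 3.81 CPM in WT, and 1.97 and 5.11 CPM in MD1. Both were below every WT library in MD1 female replicate 4, at 0.836 and 0.988 CPM. The lowest WT libraries had 0.871 and 1.99 CPM. Krt7 and Krt19 went the other way in that MD1 library, where they were highest, at 23.0 and 32.3 CPM. Keratins of a mature oral or cornified epithelium, named here after their values were seen, did not all go 1 way. Krt4 and Krt13 had no reads in all 10 libraries and Krt6a none in 8, while Krt10 averaged 9.05 CPM in WT and 10.9 CPM in MD1. Krt17, a marker of surface ectoderm and periderm, averaged 0.119 CPM in WT and had no reads in 4 libraries.

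Within epithelial pairs, the ratio of the 2 keratins and of the 2 adhesion genes was compared, a value that the amount of epithelium shared by both genes does not alter. The CPM ratio of Krt8 to Krt18 was 0.774, 0.755, 0.758, 0.810, 0.806 and 0.842 in WT replicates 1 to 6 and 0.809, 0.819, 0.819 and 0.891 in MD1 replicates 1 to 4. The groups overlapped, and the mean difference of 0.08 on the log2 scale had p = 0.0905 and adjusted p = 0.0905 over the 2 ratios (exact permutation test, 2-sided, 210 arrangements). Among libraries labelled male the 2 MD1 ratios were above the 3 WT ratios, and among those labelled female they overlapped.

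The ratio of Cdh1 to Epcam was 0.906, 0.980, 1.14, 0.911, 0.883 and 0.867 in WT replicates 1 to 6, and 0.860, 0.785, 0.815 and 0.797 in MD1 replicates 1 to 4. Every MD1 library was below every WT library, by little in the case of the library labelled MD1 female replicate 1. Among all 28 pairs of the surface ectoderm and periderm genes, this was the only 1 whose ratio did not overlap between the genotypes. These pairs share genes and libraries, and how often the ratios of other gene pairs do not overlap was not tested. The mean difference of the Cdh1 to Epcam ratio was -0.21 on the log2 scale (p = 0.0190, adjusted p = 0.0381, exact permutation test, 2-sided). The adjustment covered the 2 ratios tested and not the 28 pairs. With any 1 MD1 library left out the difference stayed between -0.24 and -0.20, but the call was lost (adjusted p = 0.0714, 0.119, 0.0952 and 0.119 without MD1 replicates 1 to 4, exact permutation test).

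**Figure D5:**
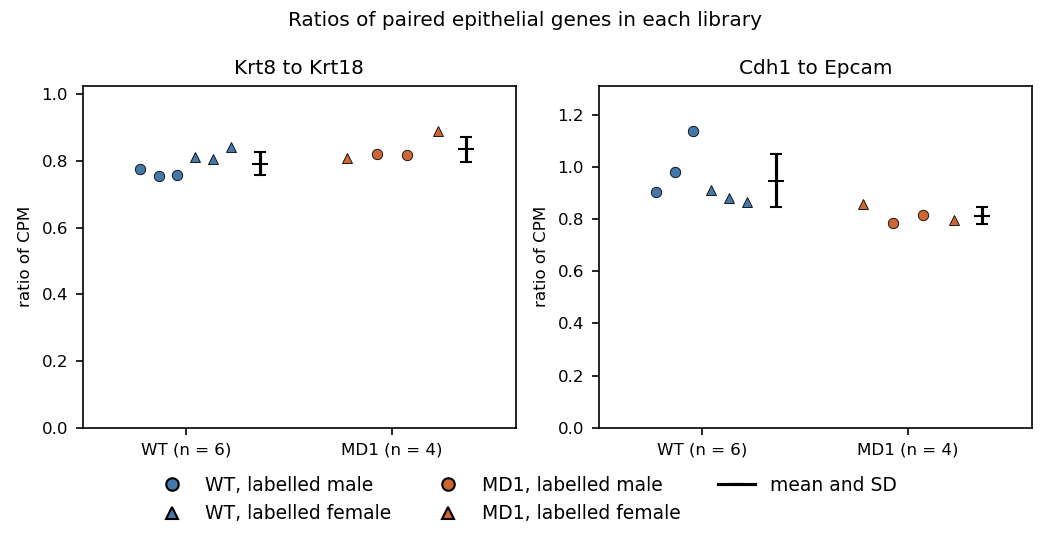
Ratio of CPM (y axis, from 0) of Krt8 to Krt18 (left) and Cdh1 to Epcam (right) in each library, blue for WT and orange for MD1, circles for libraries labelled male and triangles for female, with black bars for the mean and SD. The keratin ratios overlap between 0.755 and 0.891, whereas the adhesion ratios of MD1 (0.785 to 0.860) lie below those of WT (0.867 to 1.14).

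The 8 genes varied together across libraries. All 28 pairwise correlations of log2 CPM were above 0, with a median r of 0.70 over the 10 libraries, 0.54 over the 9 libraries without MD1 female replicate 4 and 0.46 over the 6 WT libraries. These correlations share the libraries, their scaling and any difference in dissection, and are given as a description. Krt8 and Krt18, the neighbours shown above, were the closest pair (r = 0.99 over 10 libraries and 0.97 over WT). In WT, Trp63 varied with Cdh1 (r = 0.93) and with Grhl3 (0.91), and Grhl2 with Esrp1 (0.87), whereas Cdh1 and Krt8 were nearly unrelated (0.07).

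The genes whose level was most like the mean standardised level of the 8 genes were sought among 11753 tested genes with a mean of at least 5 CPM. The 10 closest by Pearson r over the 10 libraries were Meis1 (0.95), Fn1 (0.94), Hivep2, Pls1, Abca3, Metap1d, 2700049A03Rik, Stambp, Tmc4 and Patj (0.92), with Spearman rho from 0.76 to 0.93. With the 2 libraries farthest from the median left out (MD1 female replicate 4 and WT female replicate 5), r over the other 8 libraries was 0.96 for Meis1 and 0.69 to 0.88 for the remaining 9. The median r of all candidates was -0.06. Over the 48 listed epithelial genes among them, the median r was 0.61.

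Other genes of the same epithelium were read from lists. Of the ectoderm transcription factors 16 of 21 were tested, 10 with a log2 fold change above 0 and 6 below, 0 past the threshold, with a median of 0.08. The most abundant were Tfap2b, Trps1, Tfap2a and Tfap2c, the AP-2 factors of ectoderm and neural crest beside a zinc-finger repressor, with log2 fold changes of -0.03, -0.06, 0.07 and 0.68 and adjusted p from 0.526 to 0.958 in edgeR. Without MD1 female replicate 4 they were 0.15, 0.01, 0.05 and -0.12, so that 3 of the 4 changed sign.

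Of a list of genes tied to clefting, 15 of 16 were tested, 11 above 0 and 4 below, 0 past the threshold, with a median of 0.09. The median was 0.03 without MD1 female replicate 4 (9 above, 6 below) and -0.02 without both libraries labelled MD1 female (6 above, 9 below). Ctnnd1, which encodes the p120 catenin that holds E-cadherin at the membrane, differed by 0.05, Msx1 by -0.29, Fgfr2, a target of Esrp1 splicing, by 0.09 and Arhgap29 by 0.68. Without MD1 female replicate 4 these values were 0.09, -0.16, 0.03 and 0.11.

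Of the epithelial adhesion and junction genes 28 of 30 were tested, 22 above 0 and 6 below, 0 past the threshold, with a median of 0.14. The median was 0.11 without MD1 female replicate 4, and 0.03 with 15 above 0 and 12 below without both libraries labelled MD1 female. The most abundant were the integrin Itga6 (log2 fold change 0.14), the P-cadherin gene Cdh3 (0.09), the claudin Cldn6 (0.10) and the desmosomal plakin Dsp (0.09), with adjusted p from 0.668 to 0.824 in edgeR, and 0.19, 0.08, 0.11 and 0.03 without MD1 female replicate 4. Dsg3 was at 0 in all 10 libraries.

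Of the remaining epithelial genes 22 of 22 were tested, 20 above 0 and 2 below, 0 past the threshold, with a median of 0.25, and 16 above 0 with a median of 0.12 without MD1 female replicate 4. Spint2, a serine protease inhibitor, differed by 0.42, its target protease gene St14 by 0.23, the receptor gene Erbb3 by 0.13 and Cdcp1 by 0.39 (adjusted p from 0.508 to 0.701 in edgeR). Without MD1 female replicate 4 these differences were 0.12, 0.07, 0.06 and -0.05. Of the other keratins 6 of 14 were tested, 4 above 0 and 2 below, 0 past the threshold, with a median of 0.28 that became -0.40 with both libraries labelled MD1 female left out. The most abundant of these were Krt7 (0.29), Krt10 (0.27), Krt19 (1.06) and Krt14 (0.37). Without MD1 female replicate 4 they were at -0.25, 0.17, 0.11 and 0.73.

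For comparison, the mesenchyme list (17 of 17 tested, among them Col3a1, Fn1, Vim and Cdh11) had 6 above 0 and 11 below, 0 past the threshold, with a median of -0.03, and without MD1 female replicate 4 it had 11 above 0 and 6 below with a median of 0.02. The nasal placode list (16 of 16 tested, among them Sox2 and Eya1) had 13 above 0 and 3 below, 0 past the threshold, with a median of 0.15 that was 0.04 without MD1 female replicate 4. The differences between these lists were not tested.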

How the data were processed

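The authors deposited raw counts of reads per gene and, in another table, log2 RPKM values (log2 of reads per kilobase, corrected for library size). Per the study's methods and the submitters' processing notes, 75-base single-end reads went through Trim Galore 0.4.4 (trimming), HISAT2 2.0.5 (alignment to GRCm38.p6) and SeqMonk (counting), with bcl2fastq also named. The sources used here do not state whether counting used strand. The deposited averages over each genotype were not used.

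Of 35591 rows, 27 had a symbol turned into a date, which was restored by identifier, and 49 repeated an identifier, of which the row with more reads was kept. Counts were tested with edgeR 4.0.16 in R 4.3.3 (quasi-likelihood test, filterByExpr leaving 15982 genes, TMM, no covariate, MD1 against WT), with Benjamini-Hochberg adjustment over 15452 autosomal genes and a threshold of 0.05. The test was checked on simulated data. CPM is per 1000000 of the TMM-scaled library. Scores, correlations and likeness used log2 CPM with a prior count of 2. Ratios and level orders were tested by exact permutation. No pair of libraries was alike within sampling noise (lowest chi-square per degree of freedom 4.15 over 45 pairs).

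The 8 genes, the 14 other lists and the motifs were chosen with earlier results of these data known. Named were the 8 genes, each list's genes past the threshold or else up to 4 with the highest mean level, the 10 genes of highest likeness and Smchd1; genes named beyond that rule were chosen after their values were seen. Alternatives were RLE and total-count scaling, no filter, labelled sex as covariate, all chromosomes, a replicate block, leaving out libraries, limma 3.58.1 (voom and log2 RPKM) and DESeq2 1.42.0. Some genes that this rule would name are not reported here.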

Additional observations from a re-analysis of the deposited data

Results flagged for a closer look

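Within the 4 MD1 libraries, Grhl3 in MD1 female replicate 4 was at 16.2 CPM, far from the other 3 MD1 libraries at 6.23 to 7.18 CPM, a gap beyond Dixon's 95% limit. The ratio of Krt8 to Krt18 in the same library was 0.891, against 0.809 to 0.819 in the others, also beyond that limit. Of the 20 sets of values examined in this way, chance would mark about 1 in 20. The same library has the highest hypoxia and erythroid scores, and their part in these values was not tested.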

How the results depend on the processing

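None of the 8 genes passed the threshold under any alternative run, the lowest adjusted p being 0.248 for Epcam. Over the 21 settings, the log2 fold changes of Trp63, Grhl2, Epcam, Esrp1, Krt8 and Krt18 kept a sign above 0, while Grhl3 was -0.055 without MD1 female replicate 4 (and up to 0.56 with another library left out) and Cdh1 was -0.030 without both libraries labelled MD1 female. The median of the 8 genes was 0.11 in both of these settings and between 0.11 and 0.38 with a single library omitted. The number of autosomal genes called, 12, became 4 to 13 with 1 library left out, 6 without both libraries labelled MD1 female, 51 with DESeq2 and 4 with limma on log2 RPKM. With a replicate block it was 0, and the difference of the Cdh1 to Epcam ratio was -0.27 (exact permutation adjusted p = 0.125, the smallest 4 pairs allow). The replicate numbers are not said to mark pairs, and same-numbered libraries did not deviate together (correlations -0.04 to 0.08). The ratio of Cdh1 to Epcam differed by -0.24 without both libraries labelled MD1 female and by -0.24 to -0.16 with 1 library left out, with the call lost in the former (exact permutation adjusted p = 0.143) and without any 1 MD1 library. For Krt8 to Krt18 the difference was 0.045 to 0.10 with 1 library left out, and it passed without WT female replicate 6 (0.10, exact permutation adjusted p = 0.0397). With all 10 libraries 5 neighbouring pairs of the level order passed, against 0 in the 6 WT libraries. It was also 0 with 1 WT library left out, where 5 libraries cannot reach the threshold (smallest p 0.0625, exact permutation test). The cause of these changes was not tested beyond the number of libraries. Grhl3, at 27 reads in the shallowest library, is the gene that depth limits most.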
